A study of Homo sapiens with 9 samples.

Results

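The regions described here lie on contigs, the stretches of the human reference sequence that are not built into a chromosome. A contig is called unplaced (its name starts with chrUn) when its chromosome is not known, and unlocalized (its name ends in random) when the chromosome is known but the position on it is not. Members were chosen by these names alone, with no threshold on a measured value. Earlier results of these data were known when this rule was chosen. They were 1054 of the 148797 regions in the table (0.708%), on 106 contigs: 574 regions on 70 unplaced contigs and 480 on 36 unlocalized ones. The unlocalized regions belonged mainly to chromosomes 14 (146 regions), 22 (103), 1 (81) and 17 (60).

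The cells were SK-N-BE(2)c, an established neuroblastoma line, and the assay was ATAC-seq, in which Tn5 transposase cuts DNA where it is accessible and the cut fragments are sequenced. All cells were transfected with 100 nM of an antisense oligonucleotide by lipofection and collected 48 h later, and the groups differed in the oligonucleotide. ASO2 and ASO10 are directed against NESPR, a long non-coding RNA, while NCA serves as the negative control. Each group had 3 libraries, no untransfected cells were among the samples, and 1 control oligonucleotide stands for all controls. The labels do not say whether the 3 libraries came from separate cultures, so p-values measure only the spread between these libraries, which may be technical.

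Library totals ran from 7293565 to 10948569 counts. As a check of the cell line, which is known to carry many copies of MYCN, the density of counts within 100 kb of that gene was 61.3 to 79.2 times the median of chromosome 2 in the 9 libraries (39 regions). By group it was 70.7 to 79.2 in NCA, 61.3 to 65.8 in ASO2 and 73.7 to 78.1 in ASO10. ASO2 lay below both other groups without overlap, a difference that was not tested.

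Contigs hold much of the repeated DNA that is hard to assemble. Part of it is satellite DNA, short units repeated in tandem at and around centromeres, which is mostly packed as heterochromatin. Another part is ribosomal DNA, tandem copies of a unit in which RNA polymerase I transcribes the 45S precursor of the 18S, 5.8S and 28S ribosomal RNAs, followed by a long intergenic spacer. In a given cell some copies of this unit are active and open and others are silent. Because the reference holds few copies of each repeat, reads from many copies in the cell pile up on them, so a count on such a region reflects copy number as well as accessibility.

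The 45S genes on contigs are RNA45SN5 on chrUn_GL000220v1 (105424 to 118780) and RNA45SN4 on chr22_KI270733v1_random (122273 to 135645). The RefSeq gene table (GRCh38.p14) gave these positions but not the contig, and the pairing of gene and contig is general knowledge of the assembly. Each of these contigs also carries part of a further 45S unit, called the second copy below, placed from the 18S pseudogenes RNA18SP3 and RNA18SP4. At the length of the full copies, these units would span 149396 to 162752 on chrUn_GL000220v1 and 167354 to 180726 on chr22_KI270733v1_random. Regions inside these spans reach 161718 and 179671. The spans are assumed from the length of the full copies, so how far the second copies extend was not tested. Chromosome 21 has 3 full copies (RNA45SN1, RNA45SN2 and RNA45SN3), which served for comparison. To show what DNA of this repeat is like, the hairpin of the microRNA gene MIR6724-4, which ends 601 bases before the start of RNA45SN1, is printed from the RefSeq table (GRCh38.p14, chr21:8432530-8432621, plus strand, as RNA, 5′ to 3′). Capitals mark the mature miRNA of 23 bases.
MIR6724-4: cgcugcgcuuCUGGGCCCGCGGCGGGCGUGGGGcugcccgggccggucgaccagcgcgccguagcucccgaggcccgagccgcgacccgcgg
G and C made up 83.7% of its 92 bases. It lies inside the chromosome 21 region 8432314 to 8435467, which spans the start of RNA45SN1. The sequence of the contigs themselves was not used here, so their satellite content, base composition and motifs were not analysed here.

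Contig regions were wider and more heavily covered than regions on the 24 main chromosomes. Their median width was 527 bases, against 372. Their median level was 4.12 CPM (the count divided by the library's effective size and multiplied by 1000000), against 1.96. The effective size is the library's total over regions that passed the filter on low counts, times its TMM scaling factor. Per kilobase of region the medians were 8.19 and 5.58 CPM. Above 100 CPM lay 75 contig regions (7.12%), against 286 regions of the main chromosomes (0.194%). Of the 1054 regions, 1013 (96.1%) passed the filter on low counts and were tested, against 80.1% on the main chromosomes.

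Contig regions took between 2.92% and 3.54% of each library's counts. In NCA replicates 1 to 3 the share was 3.20%, 3.51% and 3.32% (3.34% ± 0.155, SD, n = 3). In ASO2 it was 3.04%, 2.92% and 3.29% (3.08% ± 0.190, SD, n = 3). In ASO10 it was 3.45%, 3.53% and 3.54% (3.51% ± 0.0473, SD, n = 3). ASO2 and ASO10 did not overlap, while NCA overlapped both. The two-sided exact permutation test gave p = 0.2 for ASO2 against NCA, p = 0.2 for ASO10 against NCA and p = 0.1 for ASO2 against ASO10, and 3 against 3 libraries cannot give less than 0.1.

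Few contigs held most of these counts. Together 5 contigs held 50% of them, 11 held 75% and 24 held 90%. The contig with the most counts, chr14_GL000225v1_random (55 regions), took 0.537% of all counts on average and 16.2% of the contig counts. Next came chrUn_KI270438v1 with 0.446% and the ribosomal contigs chr22_KI270733v1_random and chrUn_GL000220v1 with 0.347% and 0.305%. The other contigs among the 10 with the most counts were chrUn_GL000216v2 (0.231%), chrUn_KI270467v1 (0.154%), chr17_KI270729v1_random (0.141%), chrUn_GL000224v1 (0.130%), chr1_KI270709v1_random and chr17_GL000205v2_random. The region with the highest level was chrUn_KI270438v1 109197 to 112447. Its CPM was 3194, 3461 and 3149 in NCA, 3227, 2836 and 3177 in ASO2, and 3148, 3435 and 3342 in ASO10, so the groups overlapped. On the same contig, the region 103884 to 105298 had 1184 to 1342 CPM in NCA, 1090.5 to 1254 in ASO2 and 1208 to 1311 in ASO10, again overlapping.

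**Figure D1:**
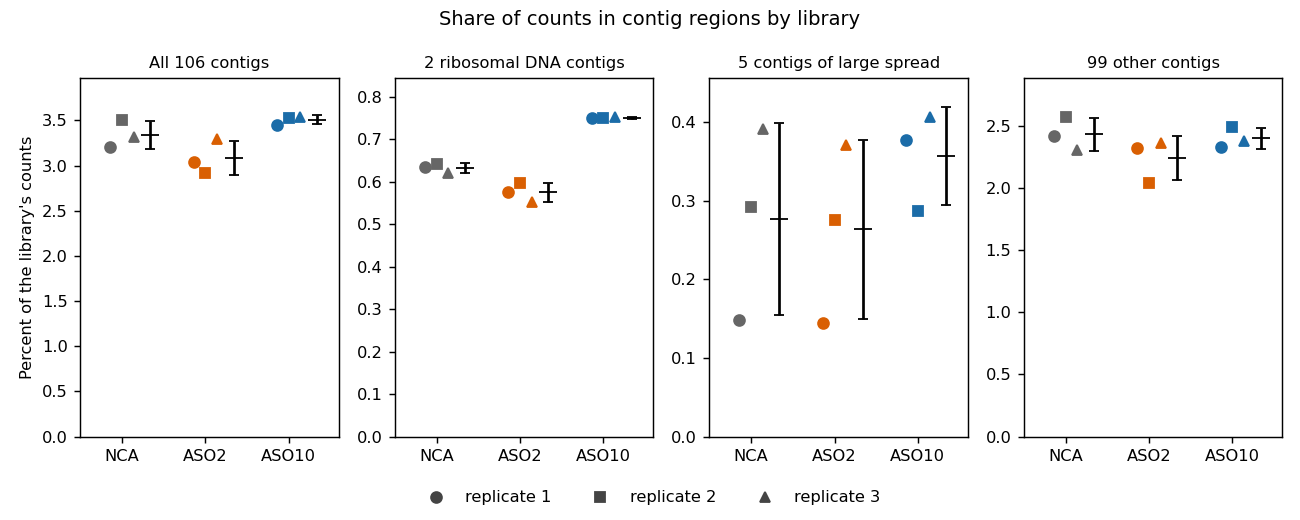
Percent of each library's counts (y axis, from 0) in all contig regions, the 2 ribosomal DNA contigs, the 5 contigs of large spread and the 99 others. Each symbol is 1 library, with the mean and SD of the 3 libraries beside it. The 3 groups separate in the ribosomal panel, and the replicates of a group lie far apart in the panel of large spread.

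The 2 ribosomal DNA contigs held 19.6% of the contig counts, and their level separated all 3 groups. They took 0.635%, 0.642% and 0.619% of the counts in NCA, 0.575%, 0.598% and 0.552% in ASO2, and 0.749%, 0.749% and 0.753% in ASO10. ASO10 was highest and ASO2 lowest, with no overlap between any pair of groups. The ratio of means was 1.19 for ASO10 over NCA, 0.909 for ASO2 over NCA and 0.766 for ASO2 over ASO10. Each of these 3 comparisons gave p = 0.1 in the two-sided exact permutation test, the smallest value it allows.

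Counts summed per contig were then tested with edgeR's quasi-likelihood test across 129 chromosomes and contigs, 105 of them contigs, with Benjamini-Hochberg adjustment and a threshold of 0.05. Under ASO10 against NCA 2 contigs were called, both ribosomal and both higher, among 6 sums called of 129 (4.65% of all sums). The summed level of chr22_KI270733v1_random was 3402, 3499.9 and 3335 CPM in NCA and 4116, 4087 and 4202 CPM in ASO10. The change was 0.28 on the log2 scale (SE 0.050, adjusted p = 0.00324). For chrUn_GL000220v1 the levels were 3013, 3062 and 2916 CPM in NCA and 3571, 3579 and 3695 CPM in ASO10, a change of 0.27 (SE 0.048, adjusted p = 0.00324). No call remained without ASO10 replicate 3, where both contigs had an adjusted p of 0.0614, and 3 contigs were called without ASO10 replicate 2.

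Under ASO2 against NCA 0 of 105 contig sums were called by edgeR, as were 0% of all 129 sums, 19 contigs had an unadjusted p under 0.05, and DESeq2 called 3, all lower. The median change of the contig sums was -0.13, and 88 of the 105 lay below 0. Under ASO10 against NCA the median was -0.0050, with 53 below 0.

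Under ASO2 against ASO10 4 contig sums were called, all lower in ASO2 (background 7.75% of all sums, 0.775% higher and 6.98% lower). The ribosomal contigs fell by 0.41 (chr22_KI270733v1_random) and 0.38 (chrUn_GL000220v1), both with an edgeR adjusted p of 6.6e-05. chr22_KI270734v1_random had 43.2, 42.5 and 43.8 CPM in ASO2 and 54.7, 55.0 and 56.9 in ASO10, with no overlap, and changed by -0.36 (SE 0.083, adjusted p = 0.0130). chr1_KI270713v1_random had 91.1, 94.1 and 92.4 CPM in ASO2 and 122, 104 and 111 in ASO10, with no overlap, and changed by -0.28 (SE 0.075, adjusted p = 0.0345). Without ASO10 replicate 3 the count fell to 2, and without NCA replicate 2, which enters only through the shared spread, it was 6. The call of chr1_KI270713v1_random was lost without any one of ASO10 replicates 1 and 3, ASO2 replicates 1 and 3 and NCA replicate 1 (adjusted p from 0.0620 to 0.206), and that of chr22_KI270734v1_random without ASO10 replicate 3 (adjusted p = 0.0839). With the replicate number as a block both calls were lost (adjusted p = 0.112 and 0.0526). Both were also lost without NCA replicate 1 and ASO2 replicate 1 together (adjusted p = 0.169 and 0.0542). ASO2 and ASO10 were compared with the same NCA libraries, so these comparisons are not independent of each other.

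**Figure D2:**
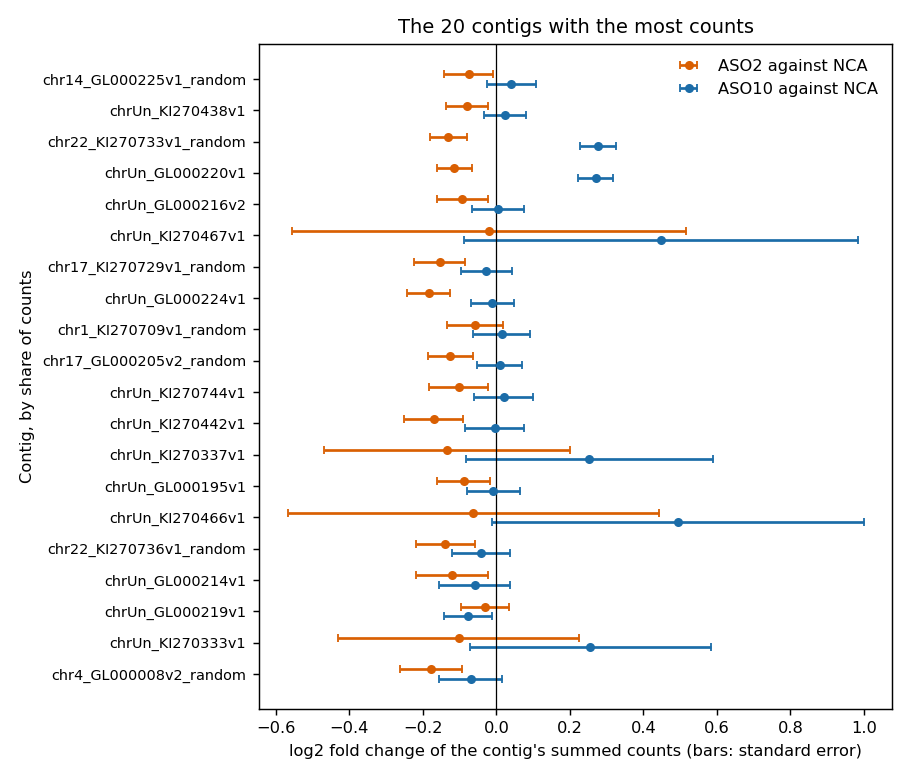
Log2 fold change against NCA (x axis) of the summed counts of the 20 contigs with the most counts, ordered by share, with bars for the standard error. Under ASO10 the 2 ribosomal DNA contigs stand at 0.28 and 0.27, and contigs with long bars are those whose replicates differed most.

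Single regions were tested with the same method over all 119417 regions that passed the filter. Under ASO10 against NCA 12 of 1013 contig regions were called and all 12 were higher, against a background of 1.09% called (0.876% higher and 0.21% lower). The share, 1.18%, was near the background, but 11 of the 12 lay in the ribosomal units. The remaining call was chr1_KI270713v1_random 20884 to 22561, with a mean of 71.4 CPM in NCA and 92.3 in ASO10 (log2 change 0.37, adjusted p = 0.0401), a region chosen for mention after its values were seen. Over all libraries it held 80.1 of the 99.6 CPM of its contig, so it is not separate from the contig sum above. Between ASO2 and ASO10 the region itself was not called (edgeR adjusted p = 0.153). Of the 960 tested contig regions outside the ribosomal contigs, 1 was called.

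The ribosomal regions were divided by position, a division chosen after seeing the files. The first class overlapped a full 45S unit or its start (9 regions), the next the second copies (9), and a further class had its centre in the 25 kb of spacer after a full unit (13). The other 23 regions on these contigs, 22 of them tested, were in no class, and edgeR called 0 under ASO10. They included chr22_KI270733v1_random 161531 to 162458 and 163133 to 163334, past the 25 kb limit and before the second copy. In the transcribed units 6 of 9 regions were called higher under ASO10, in the second copies 5 of 9, and in the spacer 0 of 13 by edgeR. In the spacer 0 also had an unadjusted p under 0.05, and DESeq2 and limma-voom called 0, while in the 18 unit and second-copy regions DESeq2 called 17 and limma-voom 16. In all 18 unit and second-copy regions the 3 ASO10 libraries lay above the 3 NCA libraries, an order found in 8.51% of all tested regions. In the spacer 0 of 13 regions showed that order. The 8.51% covers regions of every level, and the share at the level of these 18 regions was not computed. At that level 592 of 792 main-chromosome regions outside ribosomal DNA changed by more than 0 under ASO10. The median log2 change was 0.34 in the transcribed units (0.26 to 0.38), 0.30 in the second copies (0.24 to 0.35) and 0.04 in the spacer (-0.23 to 0.27).

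Along the unit the changes lay close together. The region at the start of RNA45SN5, chrUn_GL000220v1 104482 to 107644, had 334, 362 and 349 CPM in NCA, 305, 335 and 271 in ASO2, and 436, 441 and 446 in ASO10. It rose by 0.34 under ASO10 (SE 0.083, adjusted p = 0.00947), and the ASO10 libraries stood clear of all others. The region chr22_KI270733v1_random 121430 to 128081, covers the start of RNA45SN4 and its 18S gene. It had 845, 868 and 846 CPM in NCA, 755, 825 and 700.5 in ASO2, and 1067, 1032 and 1071 in ASO10, so that ASO10 stood above NCA and ASO2 below it without overlap. Its change under ASO10 was 0.31 (SE 0.075, adjusted p = 0.00969). In the 28S part of the same gene, the region 133830 to 136182 had 566, 557 and 535 CPM in NCA, 524, 576 and 471 in ASO2, and 677, 684 and 727 in ASO10 (change under ASO10 0.33, SE 0.078, adjusted p = 0.00646). Here ASO2 overlapped NCA, and ASO10 did not.

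In the second copies the largest change was 0.35. It was that of the region chr22_KI270733v1_random 170983 to 174131, which had 439, 418 and 421 CPM in NCA, 391, 424 and 384 in ASO2, and 553, 550 and 527 in ASO10 (change under ASO10 0.35, SE 0.081, adjusted p = 0.00467). In chrUn_GL000220v1 158531 to 161718 the values were 333, 363 and 351 CPM in NCA, 334, 353 and 313 in ASO2, and 430, 436 and 463 in ASO10 (change under ASO10 0.34, SE 0.082, adjusted p = 0.0084). These copies are nearly identical in sequence, and how reads that match several of them were assigned is not given in the sources used here. The copies may therefore share reads, which was not tested, and they are not counted here as independent measurements of the repeat.

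Density was higher in the units than in most of the spacer. The median was 158 CPM per kb of region in the transcribed units (115 to 251), 130 in the second copies and 72.4 in the spacer (51.8 to 130). Summed over the transcribed units on contigs, the level was 2806 ± 32.1 CPM in NCA, 2574 ± 215 in ASO2 and 3514 ± 83.8 in ASO10 (SD, n = 3 each). The spacer sums were 872 ± 81.8, 815 ± 68.4 and 917 ± 30.7 CPM (SD, n = 3 each). The ratio of unit to spacer counts, which does not depend on library scaling, was 3.18, 2.99 and 3.53 in NCA, 3.28, 3.65 and 2.64 in ASO2, and 3.96, 3.68 and 3.87 in ASO10. ASO10 lay above both other groups without overlap. The difference was 0.600 against NCA (two-sided exact permutation p = 0.1, the smallest possible), and ASO2 against NCA gave p = 1 in the same exact test.

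The 3 copies on chromosome 21 may also share reads with those on contigs, which was not tested. They are therefore not counted here as an independent measurement either. Under ASO10 8 of 12 regions in their transcribed units were called higher (median change 0.33), against 1 of 24 in their spacers (median 0.07). The region that holds the MIR6724-4 hairpin printed above changed by 0.28 under ASO10 (adjusted p = 0.0648) and was not called. The mean ratio of unit to spacer counts on chromosome 21 was 3.05 in NCA, 3.08 in ASO2 and 3.60 in ASO10.

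The size of the ASO10 difference depended on how abundant regions were scaled. Regions of the main chromosomes at the level of the ribosomal units (5.76 to 9.80 log2 CPM, 792 regions) had a median change of 0.12 under ASO10, and 9.47% of them were called higher. The 83 other contig regions at this level had a median of 0.02, and 1 was called. With loess offsets, which remove a trend of fold change with abundance, 0 of the 18 unit and second-copy regions were called. Their median fell to 0.18, while the spacer's fell to -0.11. All contig calls were then 0 higher and 4 lower. The number of contig regions called under ASO10, 12 with all libraries, was 9 without ASO10 replicate 2 or ASO2 replicate 1, 2 without ASO10 replicate 1, 1 without ASO10 replicate 3, 1 without NCA replicate 1, 6 without NCA replicate 2, 4 without NCA replicate 3 and 0 without NCA replicate 1 and ASO2 replicate 1 together.

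**Figure D3:**
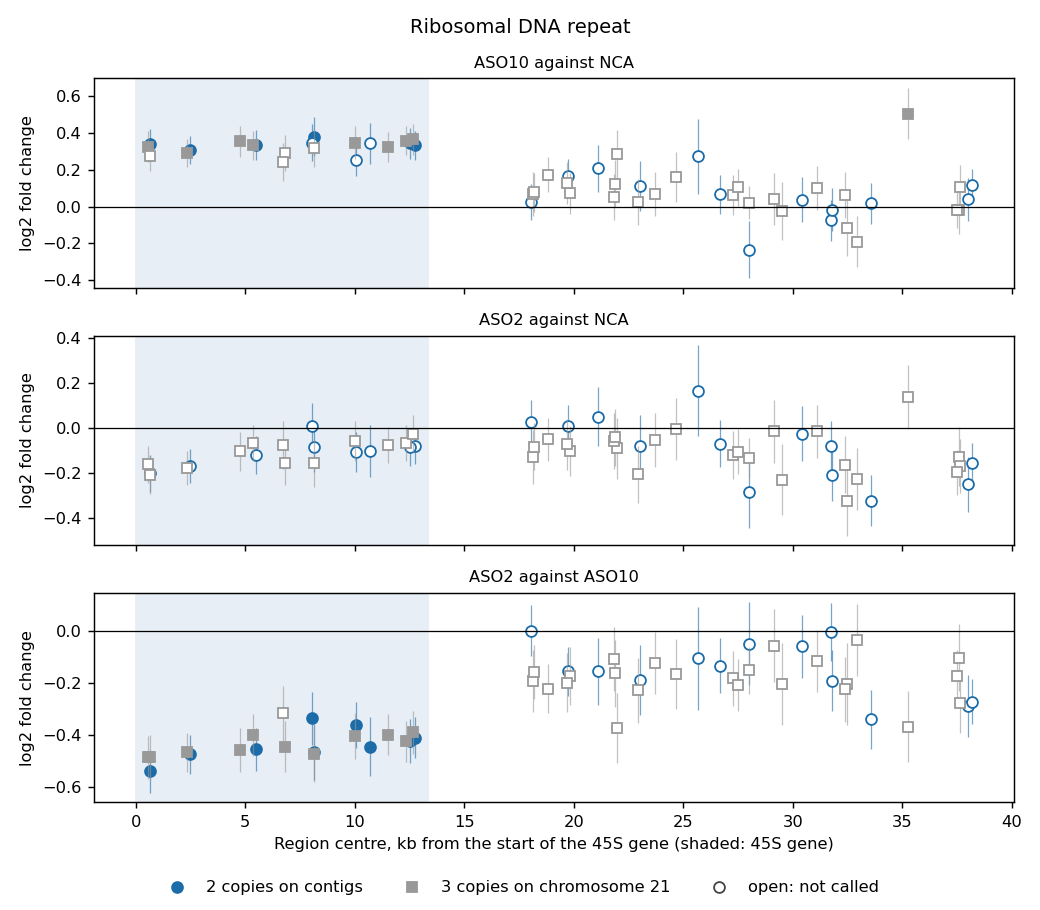
Log2 fold change (y axis, bars for the standard error) of ribosomal DNA regions by distance of their centre from the start of the 45S gene in kb, for the 2 full copies on contigs and the 3 on chromosome 21. Filled symbols passed the threshold, open ones did not, and the shaded part is the 45S gene. Under ASO10 the contig regions over the gene lie between 0.26 and 0.38, and those in the spacer between -0.23 and 0.27.

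Between ASO2 and ASO10 20 of 1013 contig regions were called, 1 higher and 19 lower in ASO2, against a background of 3.23% (2.54% higher and 0.682% lower). Of the 19, 17 lay in the ribosomal units: 9 of 9 regions of the transcribed units and 8 of 9 of the second copies, with 0 of 13 in the spacer by edgeR (3 with an unadjusted p under 0.05, 1 called by DESeq2 and 2 by limma-voom). In all 18 unit and second-copy regions the ASO2 libraries lay below the ASO10 libraries, and in the spacer the same held for 3 of 13. That order was found in 8.31% of all tested regions, which covers regions of every level. The median change was -0.45 in the transcribed units, -0.44 in the second copies and -0.16 in the spacer. The smallest adjusted p-values (edgeR) were at the start of RNA45SN5 (104482 to 107644, change -0.54, 1.07e-07), at the start of the second copy on chr22_KI270733v1_random (166469 to 170084, change -0.52, 1.29e-07) and at the start of RNA45SN4 (121430 to 128081, change -0.47, 3.26e-07). The second of these had 438, 467 and 463 CPM in NCA, 399, 422 and 354 in ASO2, and 562, 535 and 588 in ASO10, with no overlap among the groups. Main-chromosome regions at the same level had a median of -0.17, and 10.1% were called lower. With loess offsets the split of all contig calls was 7 higher and 12 lower. Of the 18 unit and second-copy regions 3 were then called, with a median of -0.18.

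The remaining calls between ASO2 and ASO10 lay outside the ribosomal contigs. The region chrUn_GL000218v1 96875 to 97959 was higher in ASO2, as described with ASO2 below. The 2 lower ones, named after their values were seen, were chr1_KI270712v1_random 56148 to 59495 (48.5 CPM in ASO2 and 69.0 in ASO10 on average, change -0.51) and chr16_KI270728v1_random 1791371 to 1792670 (8.49 and 13.4 CPM, change -0.64).

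Under ASO2 against NCA 8 of 1013 contig regions were called, 2 higher and 6 lower, against a background of 5.6% called (4.79% higher and 0.808% lower). The share called, 0.790%, was below that of all regions, and 0.197% were called higher. This background covers regions of every level, and contig regions were more heavily covered. The median change was -0.13 over the contig regions and -0.02 over all tested regions. Of the 18 unit and second-copy regions of the ribosomal contigs 0 were called by edgeR, with a median of -0.10. An unadjusted p under 0.05 was reached by 5 of them, limma-voom called 5 and DESeq2 called 1. Of the 83 other contig regions at the level of the ribosomal units, 9 lay above 0, with a median of -0.10, against 311 of 792 and a median of -0.05 on the main chromosomes. At this level 1.01% of the main-chromosome regions were called higher and 1.77% lower. For the 83 contig regions the shares were 1.20% and 0%.

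The calls under ASO2 fell on 8 different contigs. The region chrUn_GL000218v1 96875 to 97959 had 51.0, 47.0 and 48.3 CPM in NCA, 64.3, 70.5 and 65.9 in ASO2, and 49.97, 45.1 and 54.0 in ASO10. ASO2 stood above both other groups, by 0.46 over NCA (SE 0.112, adjusted p = 0.00217) and 0.43 over ASO10 (SE 0.112, adjusted p = 0.00829). The other higher call, chrUn_KI270750v1 94476 to 95245, was at a low level of 0.773, 1.89 and 0.908 CPM in NCA and 5.05, 2.79 and 2.84 in ASO2 (change 1.56, SE 0.475, adjusted p = 0.0244). With 1.30 to 3.19 CPM, ASO10 overlapped both groups there. This call was lost with limma-voom (adjusted p = 0.123) and without ASO2 replicate 1 (0.246), NCA replicate 1 (0.151) or NCA replicate 3 (0.122), and the change ran from 1.24 to 2.04 as single libraries were left out. The call of chrUn_GL000218v1 against ASO10 was lost without ASO10 replicate 1 or 2 or ASO2 replicate 2 (adjusted p from 0.0516 to 0.149).

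Among the lower calls, chrUn_KI270754v1 25991 to 27343 had 15.1, 17.8 and 17.6 CPM in NCA, 9.40, 9.44 and 11.5 in ASO2, and 12.4, 14.3 and 13.2 in ASO10. ASO2 fell by 0.73 below NCA (SE 0.174, adjusted p = 0.00145), and ASO10 lay between them without overlap. In chr17_GL000205v2_random 62423 to 64135 the levels were 45.2, 45.8 and 49.2 CPM in NCA, 36.9, 35.1 and 29.7 in ASO2, and 37.8, 42.8 and 40.5 in ASO10 (change under ASO2 -0.47, SE 0.121, adjusted p = 0.00406). The groups again stood apart. On chr22_KI270733v1_random, before the ribosomal unit, the region 84837 to 86149 had 9.28, 12.7 and 9.76 CPM in NCA, 5.89, 6.76 and 6.24 in ASO2, and 10.2, 8.53 and 11.6 in ASO10 (change under ASO2 -0.74, SE 0.214, adjusted p = 0.0141). Its call was lost with limma-voom and without ASO2 replicate 1, ASO2 replicate 3 or NCA replicate 2 (adjusted p from 0.0517 to 0.180), and that of chr17_GL000205v2_random without ASO2 replicate 3 (0.0658) or NCA replicate 3 (0.0546). The 3 other lower calls changed by -0.64, -0.86 and -1.05.

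Taking the average of both oligonucleotides against NCA, 2 of 1013 contig regions were called, both lower, against a background of 2.99% (2.4% higher and 0.594% lower). They were the regions just given on chrUn_KI270754v1 and chr17_GL000205v2_random. The ASO2 count was 15 with loess offsets (2 higher and 13 lower), 10 with total counts as library sizes (2 higher and 8 lower), and 4 both without NCA replicate 2 and without NCA replicate 1 and ASO2 replicate 1 together; the average gave 0 without ASO10 replicate 1, NCA replicate 2 or NCA replicate 3, and 1 without ASO10 replicates 2 or 3, ASO2 replicate 3 or NCA replicate 1.

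Among contigs with at least 50 CPM, replicates differed most on 5 unplaced ones. They were chosen from the data, as those with at least 50 CPM and a mean within-group coefficient of variation of CPM of at least 25%, and each carried 1 region. They were chrUn_KI270467v1, chrUn_KI270466v1, chrUn_KI270337v1, chrUn_KI270333v1 and chrUn_KI270336v1, with 25.6% to 40.3%. The other 42 contigs with at least 50 CPM had 2.86% to 12.8% (median 6.20%), so none of these lay near the limit from outside. Contigs under 50 CPM, where counting error is larger, reached 56.3% (chrUn_KI270588v1). The region chrUn_KI270467v1 865 to 3875 had 661, 1492 and 2096 CPM in NCA, 694, 1466 and 2029 in ASO2, and 2014, 1475 and 2311 in ASO10. NCA replicate 1 and ASO2 replicate 1 were the lowest libraries on all 5 contigs. On chrUn_KI270337v1 they had 315 and 285 CPM, where the other libraries had 495 to 638.

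These contigs held 9.21% of the contig counts. They took 0.148%, 0.292% and 0.391% of all counts in NCA, 0.144%, 0.276% and 0.371% in ASO2, and 0.377%, 0.287% and 0.407% in ASO10, so that the groups overlapped throughout. Of their 5 regions edgeR called 0 in each of the 3 comparisons, 0 had an unadjusted p under 0.05, and DESeq2 called 0. limma-voom called 1 lower under ASO2, all 5 higher under ASO10 and all 5 lower between ASO2 and ASO10. Under ASO10 against NCA they changed by 0.25 to 0.49 with edgeR adjusted p-values of 0.82 to 0.86. For chrUn_KI270467v1 the change was 0.45 with an SE of 0.547, about as large as the change.

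**Figure D4:**
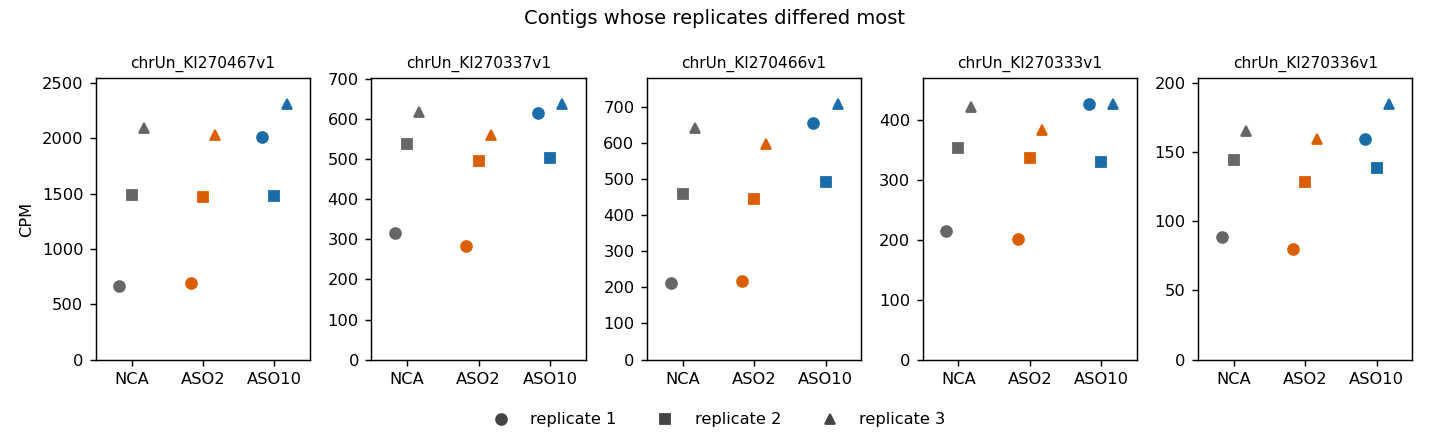
Level in CPM (y axis, from 0) of the 5 contigs of large spread, 1 panel each, with 1 symbol per library. NCA replicate 1 and ASO2 replicate 1 lie lowest in every panel, as in chrUn_KI270467v1 with 661 and 694 CPM.

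The 2 largest spreads among regions of high level lay outside the contigs. The biological coefficient of variation, edgeR's estimate of the spread between replicates beyond counting error, was 27.8% to 45.2% in the 5 regions. Among the 691 tested regions above 6 log2 CPM, 98 of them on contigs, 7 had a value at least as high as the lowest of these. They were the 5 regions themselves and, above all 5, a region on chromosome 3 with 57.9% and one on chromosome 8 with 53.1%. The one on chromosome 3 (93470276 to 93470868) had 1362, 3592 and 6453 CPM in NCA, 1578, 4096 and 6400 in ASO2, and 5791, 3943 and 7044 in ASO10, with the same 2 libraries lowest. The source of this spread was not tested.

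In the bins of level used, the median biological coefficient of variation of contig regions lay close to that of main-chromosome regions. It fell with level, from 43.2% on contigs and 44.2% on main chromosomes under 1 log2 CPM to 18.5% and 18.4% between 2 and 3. Above 6 log2 CPM it was 9.29% and 9.43%. The 5 contigs of large spread had a median of 28.8%.

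**Figure D5:**
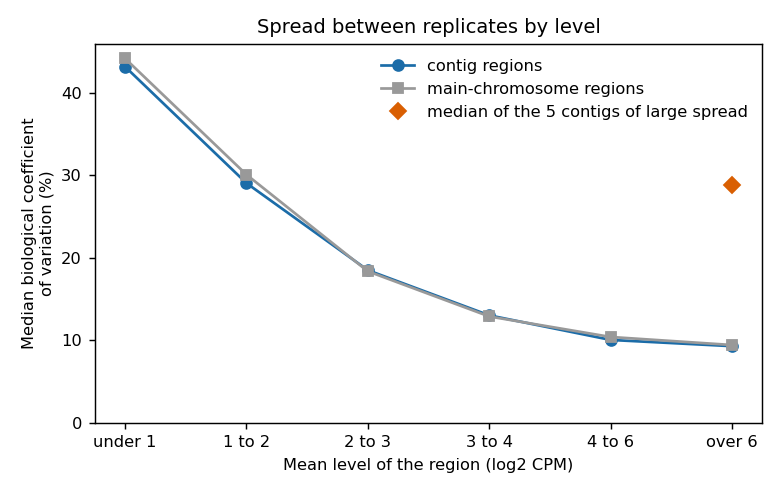
Median biological coefficient of variation (y axis, percent, from 0) of contig regions and main-chromosome regions by mean level in log2 CPM. The lines run together from 43.2% and 44.2% down to 9.29% and 9.43%, and the median of the 5 contigs of large spread lies at 28.8%.

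With both unusual classes set aside, the 99 other contigs held 71.1% of the contig counts. They took 2.43% of all counts on average in NCA, 2.24% in ASO2 and 2.40% in ASO10. By library the share was 2.42%, 2.57% and 2.31% in NCA and 2.32%, 2.04% and 2.37% in ASO2. In ASO10 it was 2.33%, 2.49% and 2.38%, so that all groups overlapped.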

How the data were processed

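ATAC-seq was measured in 9 libraries, 3 per group, and the groups were taken from the labels. The table that the authors deposited holds raw counts, as whole numbers, in 148797 regions and no normalization, as its totals of 7293565 to 10948569 per library show. Per the submitters' processing notes, FastQC, Bowtie2 2.2.6, SAMtools, MACS2 2.1.2 and DESeq2 1.42.0 were used with the hg38/GRCh38 genome. Filters, the shift of Tn5 cut sites, the counting unit and the treatment of reads that match several repeats are not given in the sources used here, and each of them can move the counts of contig regions. Coordinates are printed as the region names give them.

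Regions were filtered with filterByExpr, which left 119417, scaled by TMM and fitted over all 9 libraries with the robust quasi-likelihood method of edgeR (version 4.0.16, under R 4.3.3), with Benjamini-Hochberg adjustment over all tested regions. Counts summed per chromosome and contig were tested in the same way, with the library sizes and factors of the region fit. A standard error is the log2 change divided by the square root of its F value. For shares and ratios the test was an exact permutation of libraries, two-sided. The code was tested on simulated counts. Pairs of replicates differed beyond sampling noise (chi-square per degree of freedom 2.74 to 3.42 over all regions and 2.40 to 11.5 over contig regions, the latter highest between NCA replicates 1 and 3), and no library repeats another. Alternatives used limma 3.58.1 (limma-voom), DESeq2 1.42.0 and the settings in the closing section.

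Items named were the 10 contigs with the most counts, contigs whose sums were called, the 5 regions with the highest level, and up to 3 called regions per direction and comparison by adjusted p, with exceptions said in place. The members, the lists and the rules were chosen with earlier results of these data known. No sequence of the contigs was used here, so the planned description of satellite content was left out.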

Additional observations from a re-analysis of the deposited data

Results flagged for a closer look

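The difference between ASO2 and ASO10 drew attention where a test of the difference itself passed its threshold. By edgeR it did so for 20 of 1013 contig regions (1.97%), against 3.23% of all tested regions. By direction, 0.0987% of contig regions were higher in ASO2 and 1.88% lower, against 2.54% and 0.682% of all tested regions. It also did so for the sums of 4 of 105 contigs, against 10 of all 129 sums (7.75%), which include the main chromosomes. The 4 called sums were all lower in ASO2. On the log2 scale they changed by -0.41 on chr22_KI270733v1_random and -0.38 on chrUn_GL000220v1, the ribosomal contigs. The changes were -0.36 on chr22_KI270734v1_random and -0.28 on chr1_KI270713v1_random.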

How the results depend on the processing

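Over 34 results and their alternatives, 484 of 565 pairs kept the direction and the side of the threshold, or a count within 1.5 times. Named regions and sums kept their direction throughout and missed the threshold in 40 of these pairs. The number of contig regions called under ASO2 against NCA, 8 by edgeR, was 2 with an absolute log2 change over 1, 15 with loess offsets on abundance, 17 with at least 10 counts in every library, 21 with limma-voom, 13 with DESeq2 and 4 without NCA replicate 1 and ASO2 replicate 1 together. Under ASO10 against NCA it was 12, and 0, 4 and 22 with the fold limit, loess offsets and limma-voom, and 0 without both of those libraries. For the average of both it was 2, and 0 with the fold limit, 5 with loess offsets, 1 with no filter, 7 with limma-voom and 0 without both libraries. For ASO2 against ASO10 it was 20, and 0 with the fold limit, 33 with only the groups compared and 41 with limma-voom. Contig sums called by DESeq2 numbered 3 under ASO2 against NCA and 10 for ASO2 against ASO10. The cause of these shifts was not tested. The removal of both libraries together and all alternatives for the ratio of unit to spacer counts were added after seeing the data.

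Leaving out 1 library at a time gave 4 to 8 contig regions under ASO2, 1 to 14 under ASO10, 0 to 2 for the average and 16 to 21 for ASO2 against ASO10. Contig sums called ranged from 0 to 0, 0 to 3 and 2 to 6 under ASO2, under ASO10 and between them. The difference in the ratio of unit to spacer counts between ASO2 and NCA, -0.0485, ranged from -0.278 to 0.227 and was 0.0347 on chromosome 21, so its direction was not stable.

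Over all tested regions, deviations of libraries with the same number correlated at -0.036 to 0.013, and those of different numbers at -0.021 to 0.031. These correlations pool all regions and cannot show whether single regions followed the replicate number. In chrUn_KI270467v1 replicate 2 had 1492, 1466 and 1475 CPM in NCA, ASO2 and ASO10, and replicate 3 had 2096, 2029 and 2311. Replicate 1 had 661, 694 and 2014. With the replicate number as a block, 6 contig regions were called under ASO10, 1 for the average, and 2 contig sums for ASO2 against ASO10.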
